A study of Homo sapiens with 8 samples.

Results

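TYMS, TYMSOS and ENOSF1 are neighbouring, overlapping genes on human chromosome 18. The set was chosen by a measured value, the difference of the TYMSOS signal between H1.2-depleted and Cul4A-depleted cells. The rule named 3 genes, and every probe annotated to them was used. There were 2 such probes, ILMN_1806040 for TYMS and ILMN_1796074 for TYMSOS, of 47220 on the array, so 2 of the 3 genes are described here among 12300 genes with a kept probe. Both probes passed the detection filter, as did 22131 probes in all. The probe annotation used here listed 0 probes for ENOSF1, which is therefore not analysed here. The choice of the set rested on TYMSOS in H1.2sh against Cul4Ash, so that contrast is described without a test for either gene, and so is every comparison of TYMSOS that involves H1.2sh or Cul4Ash.

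All cells were 293T, a human embryonic kidney line that stably carries the SV40 T antigen, and each group expressed a short hairpin RNA. In the 4 groups this was a control (NCsh) or targeted the linker histone H1.2 (H1.2sh), the ubiquitin ligase scaffold Cul4A (Cul4Ash) or PAF1 (PAF1sh), a subunit of a complex that accompanies elongating RNA polymerase II. Total RNA was measured on 8 Illumina bead arrays, 2 per group. The labels name neither a further hairpin per target nor separate cultures, so effects of a hairpin other than the loss of its target cannot be told apart, and p-values measure the spread between arrays, which may be technical.

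Thymidylate synthase, the product of TYMS, methylates deoxyuridylate to thymidylate with a folate carbon, the only route by which cells make the DNA base thymine from scratch. It is the target of fluorouracil, and its gene is transcribed as cells enter S phase under E2F factors. TYMSOS (TYMS opposite strand) is read from the other strand across the start of TYMS and is classed by RefSeq as a long non-coding RNA. ENOSF1 lies at the other end of TYMS, is also read from the opposite strand and encodes L-fuconate dehydratase, an enolase-like enzyme of fucose breakdown.

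The regions just ahead of the TYMS and TYMSOS starts are shown because the signals of the 2 genes moved apart. All 3 genes of the set matched the RefSeq promoter table by symbol. In that table (build GRCh38.p14) TYMSOS starts 638 bases inside TYMS, so the window ahead of its start lies within the TYMS gene. Each sequence below holds the 250 bases before a gene's start, 5′ to 3′ on that gene's strand, with motif matches in capitals. The TYMS window is chr18:657403-657652 on the plus strand and the TYMSOS window is chr18:658292-658541 on the minus strand.
TYMS: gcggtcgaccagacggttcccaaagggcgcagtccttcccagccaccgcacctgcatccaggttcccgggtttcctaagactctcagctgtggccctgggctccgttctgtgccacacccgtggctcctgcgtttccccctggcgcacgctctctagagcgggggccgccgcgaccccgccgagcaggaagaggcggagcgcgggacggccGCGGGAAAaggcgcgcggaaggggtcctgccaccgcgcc
TYMSOS: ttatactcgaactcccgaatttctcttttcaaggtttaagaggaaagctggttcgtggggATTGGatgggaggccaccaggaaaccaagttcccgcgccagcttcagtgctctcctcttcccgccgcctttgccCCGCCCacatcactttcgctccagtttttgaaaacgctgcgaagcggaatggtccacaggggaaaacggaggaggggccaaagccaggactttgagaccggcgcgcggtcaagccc

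Searched on both strands were the GC box GGGCGG, the CCAAT box CCAAT, the TATA box TATAAA, the E box CACGTG and 4 forms of an E2F site (TTTCGCGC, TTTGGCGC, TTTCCCGC and TTTGCCGC). The TYMS window held 1 E2F match, which lies 39 bases before the start and reads TTTCCCGC on the other strand. An E2F match was found in 2.79% of 35116 promoter windows of this length. The TYMSOS window held a GC box 116 bases and a CCAAT box 190 bases before the start, letters present in 42.6% and 32.0% of windows. The GC content was 71.2% for TYMS and 56.8% for TYMSOS, with a median of 58.0% over all windows. These matches describe the letters only.

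The arrays were alike in brightness, with medians between 82.8 and 88.7 intensity units. Arrays of a group correlated at 0.995 to 0.996, and arrays of different groups at 0.975 to 0.990 (Pearson, over the kept probes). The targeted transcripts were lowest where the labels place them, with log2 changes from NCsh of -1.11 for H1-2 in H1.2sh, -1.51 for CUL4A in Cul4Ash and -2.58 for PAF1 in PAF1sh. Groups follow the matrix of processed values. Among the scanner arrays, 5 of 7 hold the values of the matrix array of that name, and the others, named for a second H1.2sh and a second Cul4Ash array, hold those that the matrix gives to Cul4Ash and PAF1sh. In the matrix both arrays of each depletion were low for their target, at 8.05 for H1-2 in H1.2sh (9.07 and 9.24 in NCsh), 6.88 and 6.91 for CUL4A in Cul4Ash (8.33 and 8.46) and 7.92 and 8.03 for PAF1 in PAF1sh (10.50 and 10.61). Of 8 genes taken as typical of this line, 6 were detected on all 7 arrays with detection values, while PAX2 and LHX1 were detected on 0. Of 9 measured markers of blood, endothelial, liver, stromal and fat cells, CD14, ALB and COL1A1 were detected on all 7, and PTPRC, CD3E, PECAM1 and CDH5 on 0. Of the 6 line genes, 2 were called in H1.2sh (1 rose, 1 fell) and 4 in either other depletion, Cul4Ash and PAF1sh (2 rose and 2 fell in each). These counts stand beside 8.93%, 13.9% and 29.1% of all probes called in H1.2sh, Cul4Ash and PAF1sh. The neurofilament gene NEFM was at 0.13, -1.43 and -2.12 in H1.2sh, Cul4Ash and PAF1sh. In the same order the related INA was at -1.14, -0.36 and -0.85, and vimentin (VIM) at 0.43, 0.63 and 0.48. The neurofilament gene NEFL went the other way, with a rise of 0.31 in Cul4Ash (limma, adjusted p = 0.0497). KRT8 rose by 0.38 in PAF1sh (limma, adjusted p = 0.0338). Of the 3 detected markers of other cells, ALB was called, at 0.39 in PAF1sh, a share near the 29.1% of all probes. The part of these markers in the results was not tested.

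TYMS was lower in PAF1sh than in any other group. In background-adjusted intensity its probe read 2231 and 2539 on the NCsh arrays and 1262 and 1331 on the PAF1sh arrays. It read 2307 and 2197 in H1.2sh and 2597 and 2722 in Cul4Ash. The PAF1sh arrays thus lay below all other arrays, the H1.2sh arrays lay within or just under the NCsh range, and the Cul4Ash arrays were the brightest.

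After normalization, which makes the distribution of all probes the same on each array, TYMS stood at 11.20 and 11.13 (log2) in NCsh and at 10.40 and 10.34 in PAF1sh. Its change was -0.80 ± 0.08 (SE, n = 2 arrays per group, limma, adjusted p = 6.82e-05), or 1.74-fold lower, with a 95% interval from -0.98 to -0.62. Of all probes tested in PAF1sh, 29.1% passed an adjusted p of 0.05, 14.5% higher and 14.6% lower, so a call by itself is common in this comparison. A decrease as large as that of TYMS was seen for 1.96% of probes.

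TYMS did not pass the test in H1.2sh or in Cul4Ash, where 8.93% (4.49% higher, 4.44% lower) and 13.9% (7.48% higher, 6.42% lower) of all probes were called. In H1.2sh it stood at 11.23 and 11.13, a difference of 0.01 ± 0.08 (limma, adjusted p = 0.946) with a 95% interval from -0.17 to 0.20. In Cul4Ash it stood at 11.37 on both arrays, a difference of 0.20 ± 0.08 (adjusted p = 0.138, unadjusted p = 0.0339 in the limma fit) with an interval from 0.02 to 0.38. The Cul4Ash and NCsh arrays did not overlap.

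**Figure D1:**
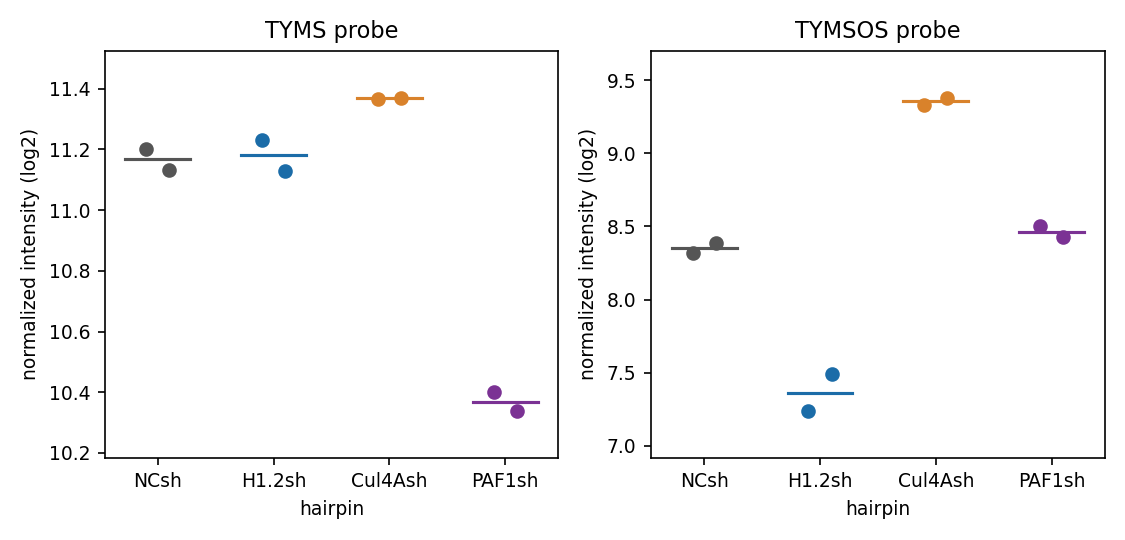
Normalized intensity (log2) of the TYMS probe and of the TYMSOS probe on each of 8 arrays, by hairpin; each point is an array, each bar the mean of 2 arrays, and the panels have separate scales that do not start at 0. TYMS is lowest on the PAF1sh arrays (10.40 and 10.34), and TYMSOS is lowest on the H1.2sh arrays (7.24 and 7.49) and highest on the Cul4Ash arrays (9.33 and 9.38).

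In order of its level, TYMS was lowest in PAF1sh (10.37 ± 0.04, log2, SD), followed by NCsh (11.17 ± 0.05), H1.2sh (11.18 ± 0.07) and Cul4Ash (11.37 ± 0.00), each with n = 2 arrays. PAF1sh stood apart from each of the others. TYMS was 0.81 ± 0.08 higher in H1.2sh than in PAF1sh (limma, adjusted p = 5.74e-05, with 15.1% of all probes called higher and 15.4% lower). It was 1.00 ± 0.08 higher in Cul4Ash than in PAF1sh (limma, adjusted p = 1.77e-05, with 15.8% called higher and 15.6% lower). NCsh and H1.2sh differed by less than the spread between their arrays. H1.2sh lay 0.19 below Cul4Ash without overlap, a comparison that was not tested.

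TYMSOS had another order. Its probe was dimmer, with adjusted intensities of 305 and 384 in NCsh and 349.6 and 359 in PAF1sh. It read 143 and 171 in H1.2sh and 621 and 683 in Cul4Ash. The H1.2sh arrays were thus the lowest, the Cul4Ash arrays the highest, and no array of either overlapped with another group. The probe was detected on all 7 arrays with detection values, which include 1 H1.2sh array.

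On the normalized log2 scale TYMSOS was at 7.36 ± 0.18 (SD, n = 2) in H1.2sh, 8.35 ± 0.05 in NCsh, 8.46 ± 0.05 in PAF1sh and 9.36 ± 0.04 in Cul4Ash. The spread between arrays was widest in H1.2sh, at 7.24 and 7.49. The difference for which the set was chosen, H1.2sh minus Cul4Ash, was -1.99, or 3.98-fold. Counting TYMSOS itself, 2 of 22131 probes were as much lower in H1.2sh than in Cul4Ash. That place follows from the choice of the set and is no result. In that contrast 14.6% of all probes were called (6.76% higher, 7.84% lower). Against NCsh the differences were -0.99 in H1.2sh (1.99-fold lower) and 1.00 in Cul4Ash (2.00-fold higher), which the choice of the gene also touched. With the scanner signals and limma's neqc background correction, on the 5 arrays of undisputed name, the H1.2sh difference was -1.48. With an offset of 50 added, which damps differences of dim probes, it was -1.21. Here and below, those 5 arrays hold only 1 array of each depletion, for H1.2sh the lower one, replicate 1. Both values thus differ from -0.99 in the arrays used as well as in the background correction.

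The difference between PAF1sh and NCsh did not enter the choice of TYMSOS, though its error does draw on all 8 arrays, the wider H1.2sh pair included. The arrays stood at 8.50 and 8.43 in PAF1sh and at 8.32 and 8.39 in NCsh, without overlap but close together. The difference of 0.11 ± 0.10 (SE, limma, adjusted p = 0.441) did not pass, and its 95% interval ran from -0.10 to 0.33. Fitted on the NCsh and PAF1sh arrays alone it was 0.11 ± 0.09 (limma, adjusted p = 0.426).

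TYMSOS and TYMS therefore moved apart in each depletion, though not in the same way. The TYMSOS signal minus the TYMS signal was computed on each array and set against its NCsh mean. This removes a scaling factor common to an array, but not a background added to every probe. The difference was -0.07 and 0.07 on the NCsh arrays themselves and -1.18 and -0.83 on the H1.2sh arrays. It was 0.78 and 0.83 in Cul4Ash and 0.92 and 0.90 in PAF1sh. In H1.2sh and Cul4Ash the larger part of this was the change of TYMSOS, and in PAF1sh it was the change of TYMS. These separations were not tested, since the choice of TYMSOS touched 2 of the 3.

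**Figure D2:**
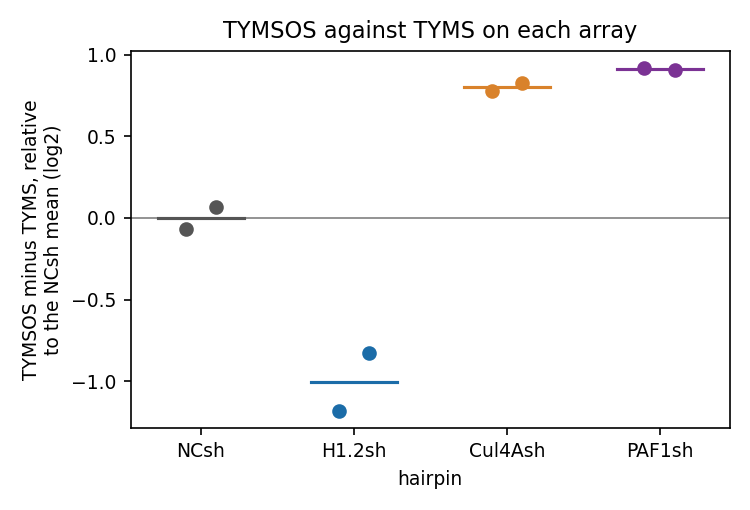
TYMSOS minus TYMS (log2) on each of 8 arrays relative to the NCsh mean, by hairpin, with points for arrays and bars for means of 2 arrays. The H1.2sh arrays lie at -1.18 and -0.83, and the Cul4Ash and PAF1sh arrays lie between 0.78 and 0.92.

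The genes whose pattern over the 8 arrays was most like that of TYMS were POLA2, TSACC, DEAF1, GALNT18 and PCCB. Likeness was the root mean square difference of the log2 values, each gene centred on its own mean, among 3461 genes whose group means spanned at least 0.5. It was 0.040 for POLA2, which encodes the regulatory subunit of DNA polymerase alpha, and 0.059 to 0.071 for the other 4. The changes of POLA2 were -0.02 in H1.2sh, 0.17 after Cul4A depletion and -0.86 in PAF1sh, close to those of TYMS in each. That closeness follows from the choice of POLA2 by this measure and is no separate result.

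For TYMSOS, whose wide span the choice fixed and for which this unscaled measure is therefore larger, the closest were the histone gene H2BC12 (0.24), RTL8A, FSTL1, CHCHD6 and SUMF1 (0.27). H2BC12 changed by -1.16 in H1.2sh, 0.47 after Cul4A depletion and -0.42 in PAF1sh. CHCHD6, whose product helps shape the cristae of mitochondria, changed by -1.49, 0.46 and -0.04. Between TYMS and TYMSOS the same measure was 0.77.

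The flanking genes were read for changes shared along the chromosome. Of the 8 protein-coding genes on each side in RefSeq order, 10 of 16 had a kept probe, and those called numbered 1 for H1.2sh, 3 for Cul4Ash and 2 for PAF1sh. They stand beside 8.93%, 13.9% and 29.1% of all probes called, and in a list of 10 nothing is read from them about the flank. On the TYMSOS side, USP14 (a deubiquitinase of the proteasome), THOC1 (a subunit of the mRNA export complex THO) and CLUL1, the nearest gene, passed in no depletion. CLUL1 was at -0.04 in H1.2sh, 0.20 after Cul4A depletion and 0.08 in PAF1sh. On the ENOSF1 side, YES1 (a Src family kinase), METTL4 (a methyltransferase), NDC80 (a kinetochore subunit) and SMCHD1 (a chromatin protein) passed in no depletion either.

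COLEC12, EMILIN2 and LPIN2 were the flanking genes called. COLEC12, a scavenger receptor gene on the TYMSOS side, was at 8.35 and 8.46 in NCsh and 9.42 and 9.54 in Cul4Ash, a rise of 1.07 ± 0.09 (limma, adjusted p = 5.72e-05). It fell by 0.48 in PAF1sh (adjusted p = 0.00186) and was at 0.06 in H1.2sh. EMILIN2, which encodes an extracellular matrix glycoprotein, rose by 1.58 in H1.2sh and 1.44 in Cul4Ash and was at 0.08 in PAF1sh. LPIN2, a phosphatidate phosphatase gene, was at -0.46 in both Cul4Ash and PAF1sh and at -0.20 in H1.2sh, where it did not pass. Without NCsh replicate 1, and without Cul4Ash replicate 2, the Cul4Ash count was 2, and without PAF1sh replicate 2 the PAF1sh count was 3. The neqc values called 0 of these genes in each depletion.

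**Figure D3:**
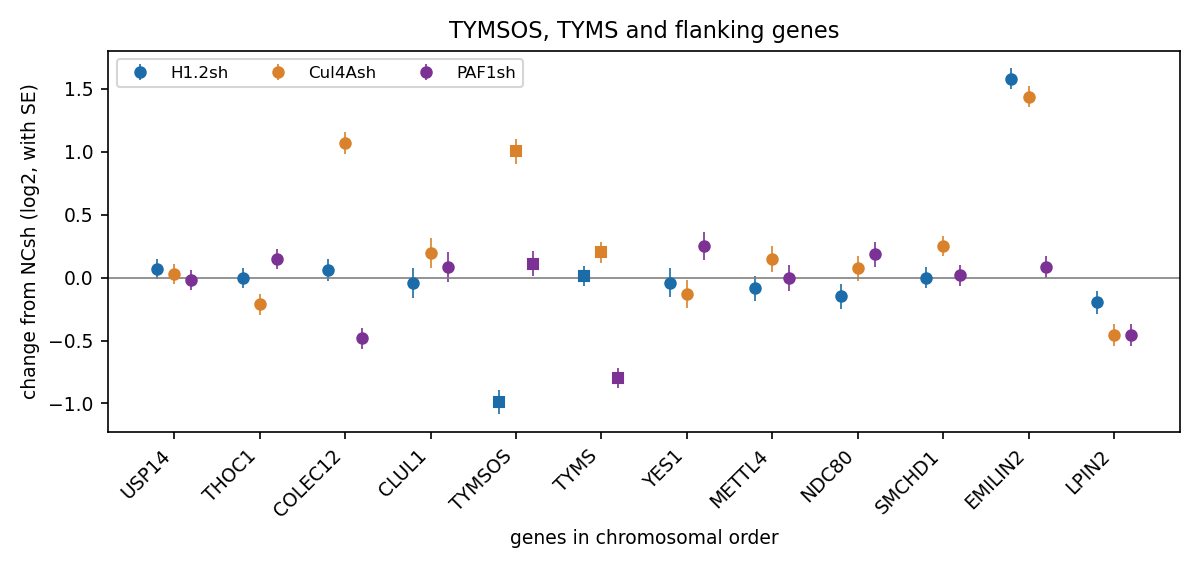
Change from NCsh (log2, with SE from limma, 2 arrays per group) of TYMSOS and TYMS (squares) and of 10 flanking genes (circles) in chromosomal order, not to scale, for 3 hairpins. COLEC12 at 1.07 in Cul4Ash and EMILIN2 at 1.58 and 1.44 in H1.2sh and Cul4Ash stand out, while the genes nearest the locus on either side, CLUL1 and YES1, were called in none.

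Genes of the folate cycle, which loads and returns the carbon that thymidylate synthase uses, fell in larger part in PAF1sh. Of 20 measured genes of folate and one-carbon supply (28 listed), 13 fell, 4 rose and 3 did not pass, so 85.0% were called beside 29.1% of all probes. Their median change was -0.37, and that of all probes was 0.01. Those that fell most were the methionine synthase gene MTR (-0.82 ± 0.13), PSAT1 of serine synthesis (-0.64 ± 0.08), the glycine cleavage gene GLDC (-0.60 ± 0.08) and the mitochondrial folate enzyme gene MTHFD2 (-0.57 ± 0.10), with limma adjusted p-values of 0.00221 or less. MTR was at 9.04 and 9.32 in PAF1sh and at 9.93 and 10.05 in NCsh. The 4 that rose were PHGDH (0.56), GGH (0.48), SHMT2 (0.42) and AMT (0.37). With median scaling 12 fell and 4 rose, without normalization 12 fell and 2 rose, and leaving out any array left 13 to 17 called.

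In Cul4Ash 4 folate genes fell and 1 rose, with a median of -0.03, which is 25.0% called beside 13.9% of all probes. PSAT1 stood at 10.78 and 10.81, a decrease of 0.83 ± 0.08 on the log2 scale (limma, adjusted p = 0.000114), and MTHFD2 (-0.44), MTHFD1L (-0.34) and SHMT2 (-0.26) fell less. PHGDH, the gene of the entry step of serine synthesis, rose by 0.34. That count of 5 went to 2 without NCsh replicate 1, 1 without NCsh replicate 2, 1 without Cul4Ash replicate 1 and 2 without Cul4Ash replicate 2. In H1.2sh PHGDH (0.34) and SHMT2 (0.33) rose and 0 fell, a share near the 8.93% of all probes, and without any of the NCsh or H1.2sh arrays the count was 0, and with median scaling or no normalization 0 rose and 2 fell. The neqc values on 5 arrays called 0 folate genes in each depletion, where they called 0 probes in all in H1.2sh and Cul4Ash and 880 in PAF1sh. With the offset of 50, on the same arrays, 10 folate genes fell and 4 rose in PAF1sh.

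Genes of thymidylate supply by other routes and of the other DNA precursors were called about as often as any probes. The calls went in both directions in Cul4Ash and PAF1sh and only upward in H1.2sh. Of 22 measured genes (24 listed), 3 rose in H1.2sh, 3 rose and 1 fell in Cul4Ash, and 3 rose and 4 fell in PAF1sh, which is 13.6%, 18.2% and 31.8% of them beside 8.93%, 13.9% and 29.1% of all probes. The salvage enzyme gene TK1, thymidine kinase, rose in all 3, by 0.49 ± 0.08 in H1.2sh, 0.69 ± 0.08 after Cul4A depletion and 0.51 ± 0.08 in PAF1sh (limma, adjusted p at most 0.00614). Its levels were 9.67 and 9.73 in NCsh and 10.20 and 10.23 in PAF1sh. In PAF1sh, then, TK1 was higher while TYMS was lower.

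DUT, whose product makes the deoxyuridylate that thymidylate synthase methylates, rose by 0.60 ± 0.08 in H1.2sh and 0.65 ± 0.08 in Cul4Ash and was at -0.02 in PAF1sh. A second DUT probe gave 0.63 and 0.68, and another gave 0.34 and 0.38 without passing. ITPA, a gene of nucleotide pool cleaning, rose by 0.48 in H1.2sh. In Cul4Ash TYMP, thymidine phosphorylase, rose by 0.49 at its brighter probe and stood at 0.07 at a dim one, and the kinase gene CMPK1 fell by 0.83 (0.82 at a second probe). In PAF1sh the mitochondrial kinase gene DGUOK fell by 0.52, the deaminase gene DCTD by 0.46 and the pyrophosphatase gene DCTPP1 by 0.45, and their other probes fell too. The ribonucleotide reductase genes RRM1, RRM2 and RRM2B passed in no depletion. Without H1.2sh replicate 1, H1.2sh replicate 2 or NCsh replicate 2, the H1.2sh count of 3 became 2, and without normalization it was 1. The neqc values called 0 of these genes in each depletion.

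**Figure D4:**
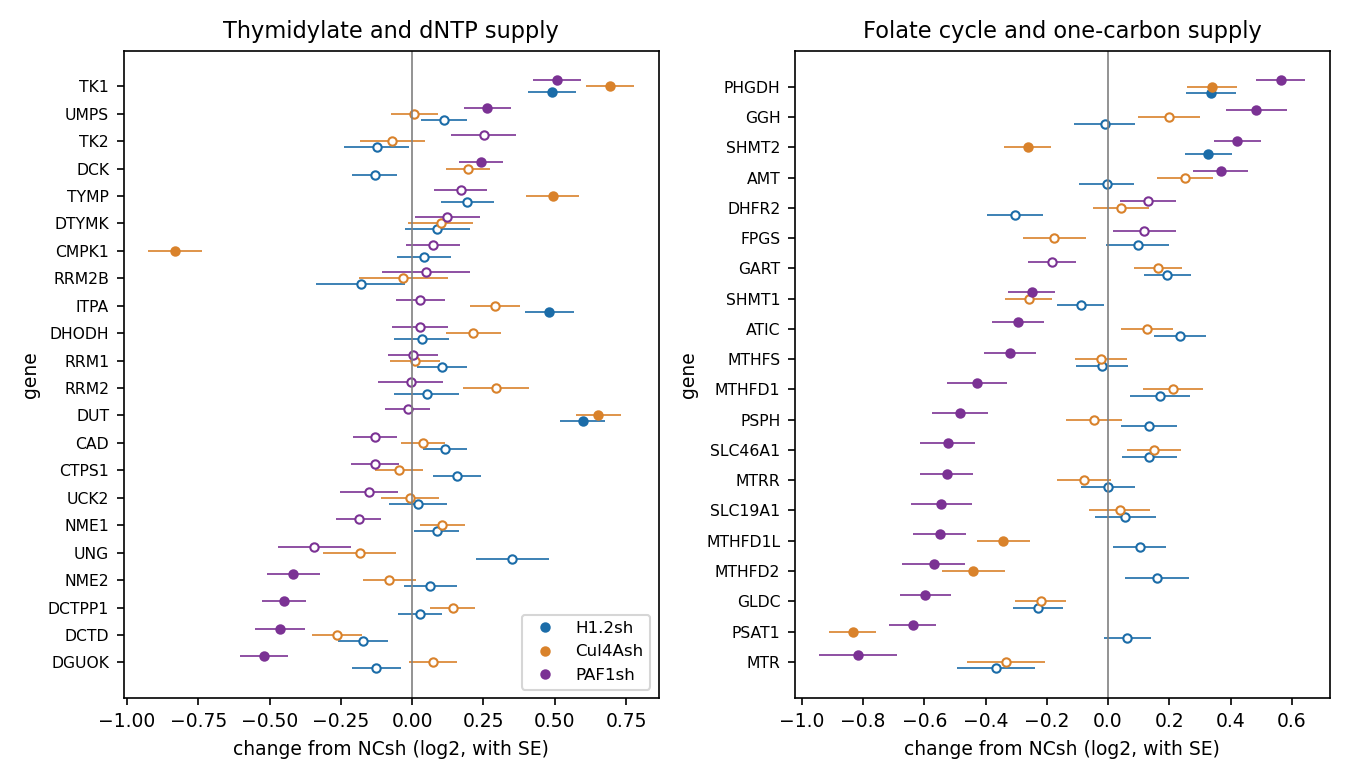
Change from NCsh (log2, with SE from limma, 2 arrays per group) of 22 genes of thymidylate and DNA precursor supply and 20 genes of folate and one-carbon supply, each ordered by the change in PAF1sh, for 3 hairpins. Filled points passed an adjusted p of 0.05; 13 folate genes fell in PAF1sh, and TK1 rose in all 3 depletions.

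Replication genes, which like TYMS are transcribed as cells enter S phase, went in both directions in PAF1sh. Of 30 measured (31 listed), 7 rose, 6 fell and 17 did not pass in PAF1sh, with a median of 0.04, so 43.3% were called beside 29.1% of all probes. POLA2 (-0.86 ± 0.08) and the cyclin E gene CCNE1 (-0.70 ± 0.08) fell, though a second, dimmer CCNE1 probe was at -0.24 and did not pass. The helicase gene MCM5 (0.55 ± 0.10) and the clamp loader gene RFC5 (0.52 ± 0.09) rose (limma, adjusted p at most 0.00186 for all 4). In H1.2sh and in Cul4Ash 5 rose and 0 fell (16.7% beside 8.93% and 13.9% of all probes), MCM5 by 0.62 and 0.60. That count was 1 in each with median scaling and without normalization, and leaving out an array gave 1 to 4 in H1.2sh and 1 to 6 in Cul4Ash, the lowest without NCsh replicate 1 or without either array of the depletion. In H1.2sh it was 2 without NCsh replicate 2 or without either Cul4Ash array. In PAF1sh the count of 13 was 8 with median scaling, 7 without normalization, 7 without NCsh replicate 2 and 8 without either PAF1sh array, and 0 with neqc in each depletion.

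Sense genes with an opposite-strand partner were also read elsewhere in the genome. By their symbols 67 such pairs had a kept probe for each partner. The span over the 4 groups of antisense minus sense was 1.91 for TYMSOS and TYMS, and the median span was 0.47. The span of that pair runs from -3.82 in H1.2sh to -1.90 in PAF1sh. Its H1.2sh end rests on TYMSOS, a value for which the gene was chosen, so the place of this pair is no result. The widest was VPS9D1-AS1 with VPS9D1, at 2.25. VPS9D1-AS1, a long non-coding RNA, changed by 0.56 in H1.2sh, 0.69 after Cul4A depletion and -0.94 in PAF1sh, all called, while VPS9D1 was at -0.22, -0.20 and 0.42, of which the last was called.

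Next were OTUD6B-AS1 with the deubiquitinase gene OTUD6B (1.72), PSMG3-AS1 with the proteasome assembly gene PSMG3 (1.42) and SLC7A6OS with the amino acid transporter gene SLC7A6 (1.24). These pairs were named for a wide span, so that their partners moved apart follows from the choice. No likeness to TYMS is read from them. In PAF1sh OTUD6B fell by 1.44 while OTUD6B-AS1 was at 0.28 and did not pass. SLC7A6 fell by 0.88 and SLC7A6OS rose by 0.33, and PSMG3 fell by 0.41 and PSMG3-AS1 rose by 0.45. Among the 66 pairs other than that of TYMS, the antisense partner was called in 5 and the sense partner in 7 in H1.2sh, where 8.93% of all probes were called, and both in 0 pairs. In Cul4Ash (13.9% of all probes) these counts were 12, 13 and 4, and the 4 pairs each moved in the same direction. In PAF1sh (29.1% of all probes) they were 19, 28 and 9, and of the 9 pairs 2 moved in the same direction and 7 in opposite ones. The pairs were formed from symbols alone. Whether the 2 genes of a pair overlap, and whether the partner called antisense is non-coding, was not checked. Probe sequences were not used here, so where the probes lie within the transcripts was not checked either.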

How the data were processed

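The members and gene lists were chosen with earlier results of these data known. Biotinylated cRNA made with an Ambion MessageAmp kit was hybridized to Illumina arrays, per the labels' protocols; the sources used here do not give software or settings. The deposited scanner table gives, on 7 arrays, each probe's linear intensity and its detection p-value (2 further columns are empty). The deposited series matrix holds a background-adjusted linear intensity for all 8. By their values, 5 scanner arrays correspond to the equally named matrix array, while the second H1.2sh scanner array corresponds to the second of Cul4Ash in the matrix and the second Cul4Ash one to the second of PAF1sh. Groups therefore came from the matrix, whose columns are tied to samples by accession.

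The matrix intensities were put on a log2 scale, then quantile normalized. Probes with a value on every array (47154) and a detection p under 0.05 on at least 2 scanner arrays, counted without their names, were kept. That filter had only 1 H1.2sh array to use. Each of 22131 kept probes was given a linear model of 4 group means across the 8 arrays, using limma 3.58.1 under R 4.3.3 (4 residual and 6.30 prior degrees of freedom) and Benjamini-Hochberg adjustment over all of them at 0.05. The fit was tested on simulated data. Symbols are those of GEO's annotation of the platform (1 symbol for 30109 probes, several for 8, none for 17103), and 0 symbols changed when updated through RefSeq (GRCh38.p14). In lists, a gene stands for its brightest kept probe, while the shares set beside the lists cover all kept probes, dim ones included. Those shares thus have an unlike basis. With a stricter filter, a detection p under 0.01, 2514, 3604 and 6866 of 17972 probes were called in H1.2sh, Cul4Ash and PAF1sh.

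Named are every probe of the set, the targeted genes, flanking genes, in each list and comparison up to 4 called genes with the largest change and no overlap between arrays, the 5 genes most like each member and the 5 opposite-strand pairs with the widest span. Other genes of the lists were named after their values were seen. Alternatives were other scalings, background corrections, filters and units tested, each array left out, only the arrays compared and a replicate block.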

Additional observations from a re-analysis of the deposited data

How the results depend on the processing

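The tested comparisons of TYMS and TYMSOS kept their side of the threshold under every alternative except neqc on 5 scanner arrays. Those 5, of undisputed name, hold only 1 array of each depletion. There the decrease of TYMS in PAF1sh was -0.79 (limma, adjusted p = 0.0604), its excess in H1.2sh over PAF1sh 0.86 (adjusted p = 0.0834) and in Cul4Ash over PAF1sh 0.99 (adjusted p = 0.0678). On the same 5 arrays the matrix values gave adjusted p = 0.00529, 0.00904 and 0.00587, and neqc with an offset of 50 gave 0.00284, 0.00512 and 0.00276; both were added after seeing the data. The cause was not tested. The TYMS difference between H1.2sh and NCsh, never called, turned to -0.061 with median scaling and to -0.080 without normalization.

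Leaving out an array, TYMS in PAF1sh ranged from -0.84 to -0.77, its H1.2sh difference from -0.039 to 0.064 (below 0 without H1.2sh replicate 1 or NCsh replicate 2), and H1.2sh minus Cul4Ash from -0.24 to -0.13. TYMSOS ranged from -1.11 to -0.87 in H1.2sh, from -2.11 to -1.86 for H1.2sh minus Cul4Ash and from -1.23 to -0.98 for H1.2sh minus PAF1sh, and TYMSOS minus TYMS in H1.2sh from -1.18 to -0.83. The ends of these 4 ranges came from leaving out an H1.2sh array.

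Described differences moved by more than the spread between arrays as follows. With neqc TYMSOS was at -1.48 in H1.2sh, 1.15 in Cul4Ash, -2.63 for H1.2sh minus Cul4Ash and -1.66 for H1.2sh minus PAF1sh, TYMSOS minus TYMS was -1.55 in H1.2sh and 0.94 in Cul4Ash, and TYMS in H1.2sh minus Cul4Ash was -0.14. With the offset of 50 TYMSOS was at -1.21, -2.27 and -1.38 in H1.2sh, H1.2sh minus Cul4Ash and H1.2sh minus PAF1sh, TYMSOS minus TYMS was -1.28 in H1.2sh, and TYMS in H1.2sh minus Cul4Ash was -0.13. The matrix values of those 5 arrays gave -1.11 for TYMSOS in H1.2sh, -1.26 for H1.2sh minus PAF1sh, -1.17 for TYMSOS minus TYMS in H1.2sh and -0.13 for TYMS in H1.2sh minus Cul4Ash. Median scaling gave -1.11 for TYMSOS in H1.2sh and 0.88 in Cul4Ash; no normalization gave -1.13 for TYMSOS in H1.2sh and -0.24 for TYMS in H1.2sh minus Cul4Ash.

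Counts of all probes called in H1.2sh, Cul4Ash and PAF1sh were 1976, 3077 and 6431. They were 0, 0 and 880 with neqc (3728, 4746 and 6679 at an unadjusted p under 0.05), 463, 912 and 3924 with the matrix values of the same arrays, and 696 and 1769 in H1.2sh and Cul4Ash with the offset. Without a filter on dim probes H1.2sh gave 798 and Cul4Ash 1548, and without normalization Cul4Ash gave 1878. Higher and lower calls were 993 and 983 in H1.2sh, 321 and 1428 with median scaling and 242 and 1469 without normalization. In Cul4Ash they were 1656 and 1421, 701 and 1734, and 780 and 1098. In PAF1sh they were 3202 and 3229, 2147 and 3107, and 2053 and 2851. Leaving out an array gave 604 to 1783, 1333 to 2891 and 4681 to 6304. Replicate numbers did not pair the arrays (correlations of replicate differences between groups of -0.10 to 0.10), and with the replicate block TYMS in PAF1sh kept -0.80 (limma, adjusted p = 0.00015) and no call of TYMS or TYMSOS changed. Alternatives planned for ENOSF1 were not run, for want of a probe. The dim TYMSOS probe limits how well its decrease in H1.2sh can be sized.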

Other observations

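ENOSF1 takes part in the breakdown of fucose, and genes of fucose metabolism and transfer were read as a list. They give no value for ENOSF1 itself, which had no probe. Of 10 measured genes (14 listed), 1 fell in H1.2sh, 1 fell in Cul4Ash, and 2 rose and 3 fell in PAF1sh, with medians of 0.05, -0.01 and 0.01. The 1 of 10 called in H1.2sh and in Cul4Ash is near the 8.93% and 13.9% of all probes, and the 5 of 10 in PAF1sh stand beside 29.1%. In PAF1sh SLC35C1, the transporter that carries GDP-fucose into the Golgi, stood at 7.31 and 7.47 against 8.22 and 8.30 in NCsh, a decrease of 0.87 on the log2 scale (limma, adjusted p = 6.32e-05). The fucokinase gene FCSK rose by 0.58 and GFUS, a gene of GDP-fucose synthesis, by 0.38, while GMDS, which acts before it, fell by 0.32. GMDS also fell in H1.2sh, by 0.36, a call lost without any NCsh or H1.2sh array. In Cul4Ash POFUT1, the enzyme that puts fucose on Notch receptors, fell by 0.79, and by 0.29 at a second probe. The PAF1sh count of 5 was 3 with median scaling, without normalization and without either PAF1sh array, 2 without NCsh replicate 2 and 1 with neqc, which gave 0 calls in the other depletions.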
